A study of Mus musculus with 10 samples.

Results

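The clustered histone genes of the mouse were followed through sorted supporting cells of the utricle, the vestibular organ in which these cells surround the sensory hair cells. The members were the 67 protein-coding genes whose GENCODE M21 symbols begin with Hist1h, Hist2h, Hist3h or Hist4h, of which 65 had values in the deposited tables among 21695 protein-coding genes. Hist1h2bh and Hist1h2bm were not analysed here. The members comprised 6 genes for linker histone H1, 18 for H2A, 18 for H2B, 12 for H3 and 13 for H4. The large Hist1 cluster held 54 of them on chromosome 13, the Hist2 cluster held 10 on chromosome 3, the Hist3 cluster held 2 on chromosome 11, and Hist4h4 stood alone on chromosome 6.

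Core histones H2A, H2B, H3 and H4 form the particle around which DNA is wrapped, and histone H1 binds the DNA between particles. The clustered genes are known for supplying these proteins during S phase, when DNA is copied. Their typical messenger RNA ends in a short stem-loop, which the protein Slbp binds, and carries no poly(A) tail; some of the genes also make longer transcripts with a tail, above all in cells that have stopped dividing. The labels state that poly(A) RNA was selected for these libraries, whereas the methods name a single-cell RNA kit.

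All cells came from cultured utricles of Lfng-EGFP mice at postnatal day 21 and were sorted for the fluorescence of that reporter, which is driven by the supporting-cell gene Lfng. The group DMSO 5 d had 0.1% DMSO, the solvent, for 5 days (3 libraries). TRULI 5 d had 10 μM TRULI, an inhibitor of Lats kinases, in 0.1% DMSO for the same time (3 libraries). The groups DMSO withdrawal and TRULI withdrawal (2 libraries each) had the same agents for 5 days and then 5 days without them. The methods call the replicates biological, but the labels name no animals, so a p-value here measures the spread between libraries. For 4 of the 10 libraries the deposited name gives another condition than the sample label. The libraries labelled TRULI 5 d 1 and 2 were deposited as DMSO withdrawal 1 and 2, and those labelled DMSO withdrawal 1 and 2 were deposited as TRULI 5 d 2 and 3. TRULI 5 d 3 was deposited as TRULI 5 d 1. Libraries are called by their labels below, and every comparison is given in both groupings.

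The libraries held from 2463865 to 6255133 counts. They fell into sets that followed the deposited names: the mitochondrial ribosomal RNA mt-Rnr2 took 1.45% to 2.53% of the counts in the 4 libraries with names for withdrawal and 13% to 26.4% in the 6 with names for 5 days. All 12 supporting-cell markers had counts in every library, with a summed level of 5101 to 13642 CPM (TMM-scaled counts-per-million values). Otog alone was at 2145 to 9964 CPM. Lfng, whose reporter was sorted for, was at 21.6 to 104 CPM in the 4 libraries named for withdrawal and at 294 to 544 CPM in the other 6. Sox2 was also lower in the former, at 32.8 to 48.2 against 52.1 to 86.5 CPM. So were Slc1a3 (558 to 791 against 1159 to 3890 CPM) and Cdkn1b (0.366 to 3.08 against 14.5 to 25.2 CPM). The ranges overlapped for the remaining supporting-cell markers. Among them Sox9 was at 715 to 928 CPM in the former and 472 to 809 CPM in the latter. The 11 hair-cell markers summed to 319 to 1325 CPM, 8 macrophage markers to 0.907 to 18.6 CPM and 7 mesenchymal markers to 3.48 to 77.5 CPM. The muscle regulator Myod1 was at 15.1 to 90.9 CPM in the 4 libraries named for withdrawal and at most 0.386 CPM in the others, while Myog was at 0 in every library. Proliferation markers summed to 252.5 and 152 CPM in DMSO withdrawal 1 and 2, to 49.9 CPM in TRULI 5 d 3 and to at most 6.75 CPM elsewhere. The libraries above 6.75 CPM are those deposited under the name TRULI 5 d.

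The stem-loops are shown first, because they are the feature by which replication-dependent messages end. The histone stem-loop consensus, searched on the transcript strand within 150 bases after the stop codon, matched in 46 of the 67 members, of which 52 had at least 30 annotated bases after the stop codon. Among other protein-coding genes with as many bases it matched in 5 of 20703 (0.024%). Capitals mark the 16-base stem-loop in the GENCODE M21 transcripts (GRCm38), with the bases beside it in lower case. The first 3 belong to members with counts in all 10 libraries, the next 2 to members at 0 throughout, Hist1h2ao to a member with 1 count in all, and Hist1h4i to the H4 gene with the most counts.
Hist1h1c: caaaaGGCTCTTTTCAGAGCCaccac
Hist3h2a: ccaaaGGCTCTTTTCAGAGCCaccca
Hist3h2ba: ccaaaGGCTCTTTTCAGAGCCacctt
Hist1h2ab: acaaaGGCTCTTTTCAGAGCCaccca
Hist1h3b: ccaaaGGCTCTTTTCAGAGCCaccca
Hist1h2ao: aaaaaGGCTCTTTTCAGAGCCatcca
Hist1h4i: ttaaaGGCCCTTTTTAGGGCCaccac

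The same 16 bases, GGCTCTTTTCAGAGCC, were found in 26 members, 0 of them for H4, whereas the 7 with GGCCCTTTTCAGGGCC were all H4 genes. Members with many counts and members without any thus carried the same stem-loop. The annotated sequence after it differed in length. The stem-loop of Hist1h1c lay at chr13:23739512-23739527 on the plus strand, 840 bases before the annotated end, that of Hist3h2a at chr11:58955172-58955187, 1643 bases before it, and that of Hist3h2ba at chr11:58949349-58949364, 169 bases before it. The annotated transcript of Hist1h2ab ended 11 bases after its stem-loop (chr13:23751572-23751587), that of Hist1h3b 51 bases after it (chr13:23752820-23752835) and that of Hist1h2ao 31 bases after it (chr13:21810898-21810913). In Hist1h4i, on the minus strand, 330 bases followed the stem-loop at chr13:22040966-22040981. Other members at 0 throughout had longer M21 sequence after the stem-loop: 2010 bases in Hist1h2ac, 752 in Hist1h3d and 454 in Hist1h4c. The deposited lengths of their transcripts were 476, 560 and 395 bases, against 2482, 1249 and 820 in M21. No match was found after the stop codon of Hist2h2be.

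A polyadenylation signal is shown for the 4 members with counts in every library, since a poly(A)-selected library can hold transcripts that end this way. Capitals mark AATAAA, searched on the transcript strand in the last 50 annotated bases.
Hist2h2be: attattAATAAAgttaccgattag
Hist1h1c: gcttctAATAAAaagcgtttagtt
Hist3h2a: atgcccAATAAAataagagtacgt
Hist3h2ba: ggtattAATAAAtttggttcaatt

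The signal began 22, 26, 34 and 27 bases before the annotated end of Hist2h2be, Hist1h1c, Hist3h2a and Hist3h2ba. The stretches shown, all on the plus strand, lie at chr3:96223711-96223734, chr13:23740336-23740359, chr11:58956791-58956814 and chr11:58949501-58949524. It was present in 14 members, and in 59.9% of the longest transcripts of 21607 other protein-coding genes. A match describes the annotated letters and not the RNA that was sequenced.

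Most histone cluster genes had few counts or none. A count was seen in at least 1 library for 37 of 65 members, and 28 were at 0 in all 10 libraries. That is 43.1% of the members, beside 27.2% of all protein-coding genes at 0 throughout, without regard to transcript length. Within each length range given below, any count was more frequent among members than among other genes. Of the members detected, 13 had counts in exactly 1 library, 16 in 2 to 7, 4 in 8 or 9, and Hist1h1c, Hist2h2be, Hist3h2a and Hist3h2ba in all 10. At least 5 counts in some library were reached by 20 members. A count of 0 over all libraries allows a level of up to 0.0724 CPM (3 counts of 41459543), which covers counting error only. In bulk libraries such as these, fewer cells with a transcript and less of it per cell cannot be told apart.

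Each library held 10 to 18 detected members, fewest in DMSO 5 d 1, the shallowest, and most in TRULI 5 d 1, the deepest. With counts thinned to the total of the shallowest library the range was 10 to 16. The counts of all members came to 3271 in the 10 libraries, or 78.9 CPM of the summed total. Hist2h2be alone gave 39.1% of them, and with Hist1h1c 66.1%. The 10 leading members gave 94.5%.

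**Figure D1:**
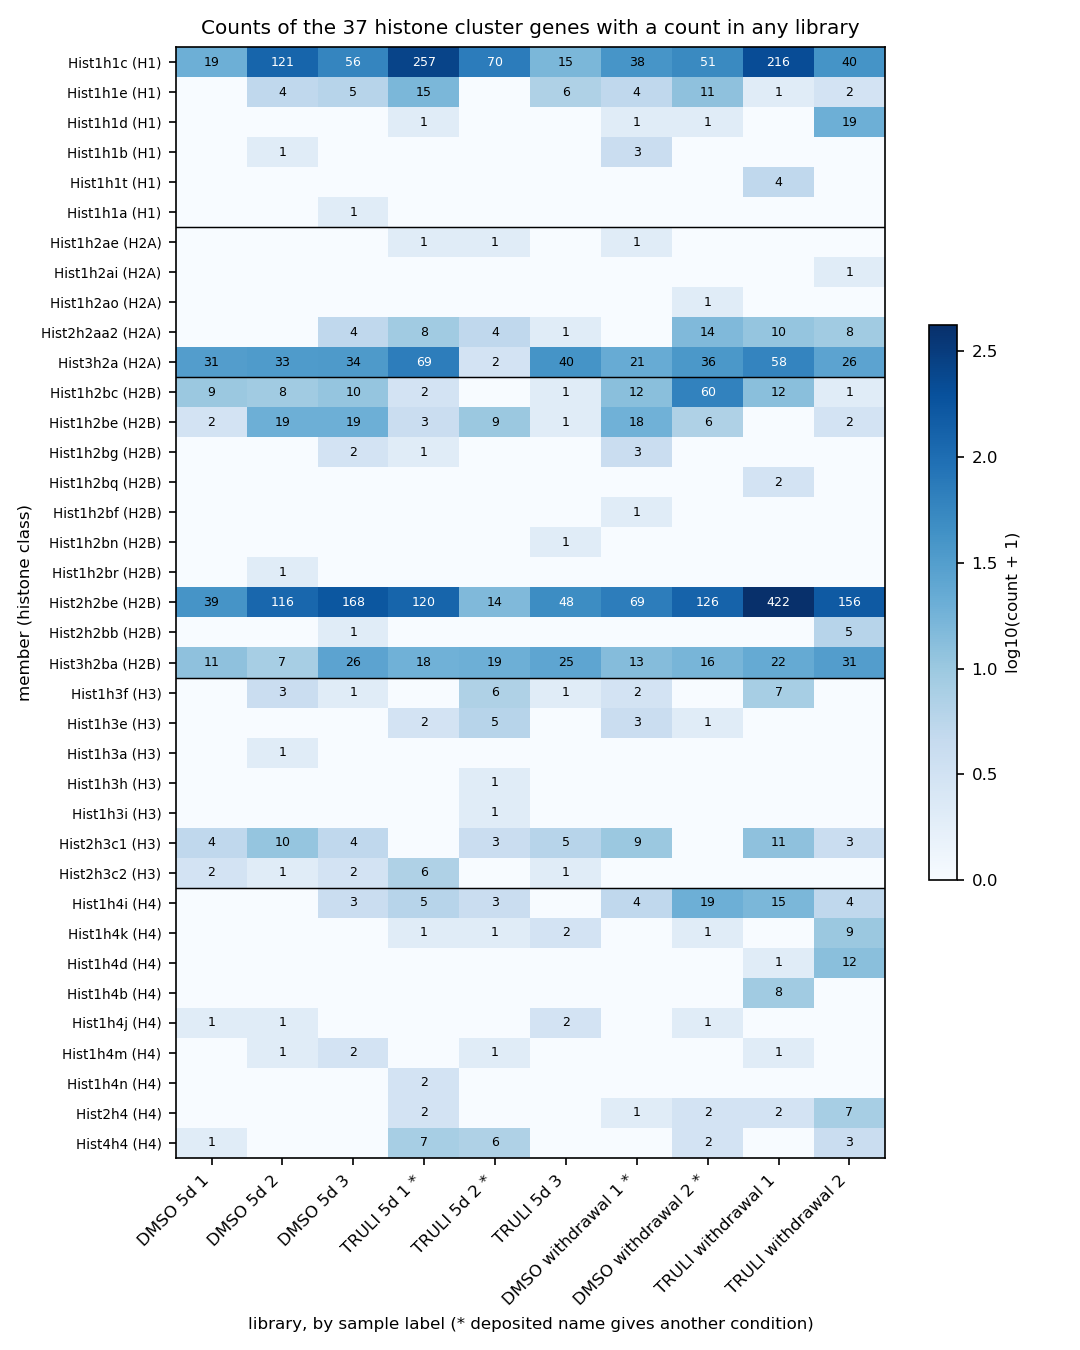
Counts of the 37 members with a count in any library, by histone class (rows) and library (columns, by sample label), with the color giving log10(count + 1) and blank cells a count of 0. Hist1h1c, Hist3h2a, Hist2h2be and Hist3h2ba are filled in all 10 columns, and most of the other rows hold counts of 1 to 20 in a few columns.

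Detection is given by transcript length. Of the 43 members shorter than 600 bases in the tables, 16 had any count, 0 were seen in 8 or more libraries, and together they gave 3.45% of the members' counts. Among other protein-coding genes that short, 28.5% of 860 had any count and 16.3% were seen in 8 or more libraries. These shares are descriptions, without a test. Of the 12 members from 600 bases to under 1000 bases 11 were detected, and all 10 members of 1000 bases or more were, with 82.1% of the counts. Among other protein-coding genes of these lengths, 38.3% of 3080 and 81.0% of 17690 had any count. Seen in 8 or more libraries were 25% and 50% of the members, and 24.6% and 63.3% of the other genes.

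The 14 members with AATAAA near the annotated end gave 85.5% of the counts, and 5 of them were seen in 8 or more libraries. Their median length was 1595 bases, against 473 bases for the 51 members without it, so that length and signal moved together; their parts in the counts were not tested. With the signal 12 of 14 members were detected, and without it 25 of 51, of which 3 were seen in 8 or more libraries. The signal was sought in M21 transcripts, and the deposited length equalled the M21 length for 43 of 65 members. Hist1h2ae and Hist1h1t, both with the signal in M21, had deposited lengths of 460 and 729 bases against 704 and 912 in M21. The transcripts counted for them may thus end elsewhere. With a stem-loop match 25 of 44 members in the tables were detected, and without one 12 of 21. Near-identical copies share reads, which makes their counts uncertain. In 24 members over 50% of all 150-base words recurred in another gene's transcript, and these gave 4.65% of the counts with 14 detected.

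**Figure D2:**
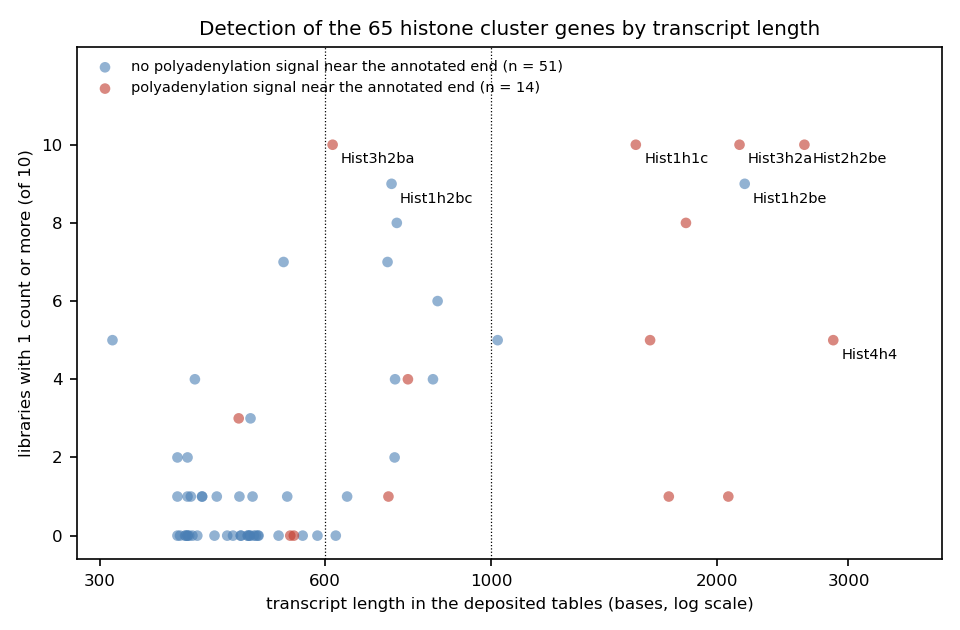
Number of libraries with a count (vertical axis, of 10) against transcript length in the deposited tables (horizontal axis, bases, log scale) for the 65 members. Members carrying a polyadenylation signal in their M21 transcripts are in red. None of the 43 members left of the first dotted line (600 bases) reaches 8 libraries, and 5 of the 10 right of the second (1000 bases) do.

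The classes were unevenly represented. H2B genes gave 51.3% of the members' counts, H1 genes 29.4%, H2A genes 12.4%, H4 genes 4.07% and H3 genes 2.90%. All 6 H1 genes were detected, 5 of 18 H2A genes, 10 of 16 H2B genes in the tables, 7 of 12 H3 genes and 9 of 13 H4 genes. The sums of H1, H2A and H2B rested mostly on 1 member each. Hist1h1c held 883 of the 962 H1 counts, Hist3h2a 350 of the 404 H2A counts and Hist2h2be 1278 of the 1677 H2B counts.

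The clusters differed as much. The Hist2 cluster of 10 genes gave 43.0% of the counts, the Hist1 cluster of 54 genes 39.9% and the Hist3 pair 16.4%. Within Hist1, all 6 H1 genes were detected, whereas 3 of 13 H2A genes were, with 5 counts in all. The Hist1 genes lie in a first block (chr13:21715763-22043676) and a second (chr13:23531050-23934851), with 1487374 bases between. In the first block 13 of 22 members in the tables were detected, with 91 counts, and in the second 15 of 30, with 1215 counts, of which 883 were of Hist1h1c.

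The summed level of all members ran from 38.3 CPM in TRULI 5 d 3 to 144 CPM in TRULI withdrawal 1, with a median of 73.8 CPM. Most of this spread lay in Hist2h2be and Hist1h1c. Without them the sum ran from 22.1 to 38.9 CPM, and in 9 of the 10 libraries it was between 22.1 and 28.9 CPM. The exception was DMSO withdrawal 2, in which Hist1h2bc had 60 counts and was at most 12 in any other library.

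Per length, Hist1h1c, the leading H1 gene, stood highest at 15 ± 11.2 FPKM (CPM divided by effective length in kilobases, mean ± SD over all 10 libraries). Hist3h2ba, an H2B gene with a short transcript, followed at 12.1 ± 4.62 FPKM and Hist2h2be, an H2B gene known for its high level in mature olfactory neurons, at 11.9 ± 8.59 FPKM. These 3 levels lay within each other's spread. Below them came Hist1h2bc, another H2B gene, at 5.55 ± 8.03 FPKM, and Hist3h2a, the leading H2A gene, at 4.29 ± 1.83 FPKM. The H2A gene Hist2h2aa2 had 3.61 ± 3.52 FPKM. All its 150-base words recur in another gene (100%), as do those of its neighbor Hist2h2aa1, listed at 0, so the assignment of reads between them is uncertain.

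H3 and H4 genes were low. The leading H4 genes Hist1h4k, Hist1h4i and Hist1h4d had means of 3.57, 2.32 and 1.65 FPKM, and for all 3 the SD (6.59, 2.78 and 4.85 FPKM) exceeded the mean. The rank of Hist1h4k rested on 14 counts over an effective length of 89.5 bases, whereas Hist1h4i had 53 counts over 496 bases. TRULI withdrawal 2 alone held 12 of the 13 counts of Hist1h4d, 9 of the 14 of Hist1h4k and 19 of the 22 of the H1 gene Hist1h1d, and TRULI withdrawal 1 held all 8 of Hist1h4b. The leading H3 genes Hist1h3f, Hist2h3c1 and Hist1h3e had 0.877, 0.811 and 0.512 FPKM. The remaining leaders of their classes were the H1 genes Hist1h1e and Hist1h1d, at 2.04 and 0.898 FPKM, and the H2A gene Hist1h2ae, at 0.334 FPKM from 3 single counts. The annotated spans of Hist1h1e and Hist1h2be overlap on the same strand in M21, so reads could be shared. The deposited length of Hist1h1e was 748 bases against 1930 in M21, so the transcripts counted may not overlap. Hist4h4, the only gene of its cluster, had 19 counts in 5 libraries and 0.182 FPKM in spite of a transcript of 2863 bases.

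Hist2h2be (chr3:96221119-96223738, plus strand) was at 15.1, 37.3 and 41.5 CPM in DMSO 5 d 1 to 3 and at 19.1, 5.13 and 12.3 CPM in TRULI 5 d 1 to 3. In DMSO withdrawal 1 and 2 it was at 16.5 and 28.6 CPM, and in TRULI withdrawal 1 and 2 at 76.6 and 32.5 CPM. The groups overlapped at 5 days in both groupings, and after withdrawal the TRULI libraries lay above the control in both. The highest library, TRULI withdrawal 1, also held the highest summed levels of hair-cell (1325 CPM), mesenchymal (77.5 CPM) and Schwann-cell markers (134 CPM); their part in the value was not tested.

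Hist1h1c (chr13:23738808-23740367, plus strand) was at 7.34, 38.9 and 13.8 CPM in the DMSO 5 d libraries and at 41.0, 25.7 and 3.86 CPM in TRULI 5 d. It was at 9.07 and 11.6 CPM in DMSO withdrawal and at 39.2 and 8.34 CPM in TRULI withdrawal. High and low libraries occurred within 3 of the 4 labelled groups, from 3.86 to 41.0 CPM within TRULI 5 d alone. By deposited name TRULI 5 d was instead at 3.86, 9.07 and 11.6 CPM and DMSO withdrawal at 41.0 and 25.7 CPM. Hist1h1c outnumbered Hist2h2be in DMSO 5 d 2 and in TRULI 5 d 1 and 2, whereas in the other 7 libraries Hist2h2be had 1.82 to 3.90 times its counts.

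Of the Hist3 pair, Hist3h2ba (chr11:58948920-58949533) ranged from 2.25 to 6.96 CPM (median 4.12 CPM), and no library stood apart. Hist3h2a (chr11:58954685-58956830) ranged from 5.01 to 12.0 CPM in 9 libraries and was at 0.733 CPM, 2 counts, in TRULI 5 d 2. Its annotated span overlaps Trim17 on the same strand, whose reads could be shared with it.

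Hist1h2bc was at 3.48, 2.57 and 2.47 CPM in DMSO 5 d and at 0.319, 0 and 0.257 CPM in TRULI 5 d. It reached 2.86 and 13.6 CPM in DMSO withdrawal and 2.18 and 0.209 CPM in TRULI withdrawal. By label the groups did not overlap at 5 days, as for 18.3% of the protein-coding genes tested, but the TRULI libraries held 3 counts in all and the gene did not pass the filter on low counts there, so the difference was not tested. By deposited name it passed the filter and the groups overlapped, at 5.58 ± 7.09 CPM with TRULI and 2.84 ± 0.554 CPM with DMSO (SD, n = 3 each), a log2 fold change of 0.99 ± 0.91 (SE) with an adjusted p of 0.660 by edgeR.

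**Figure D3:**
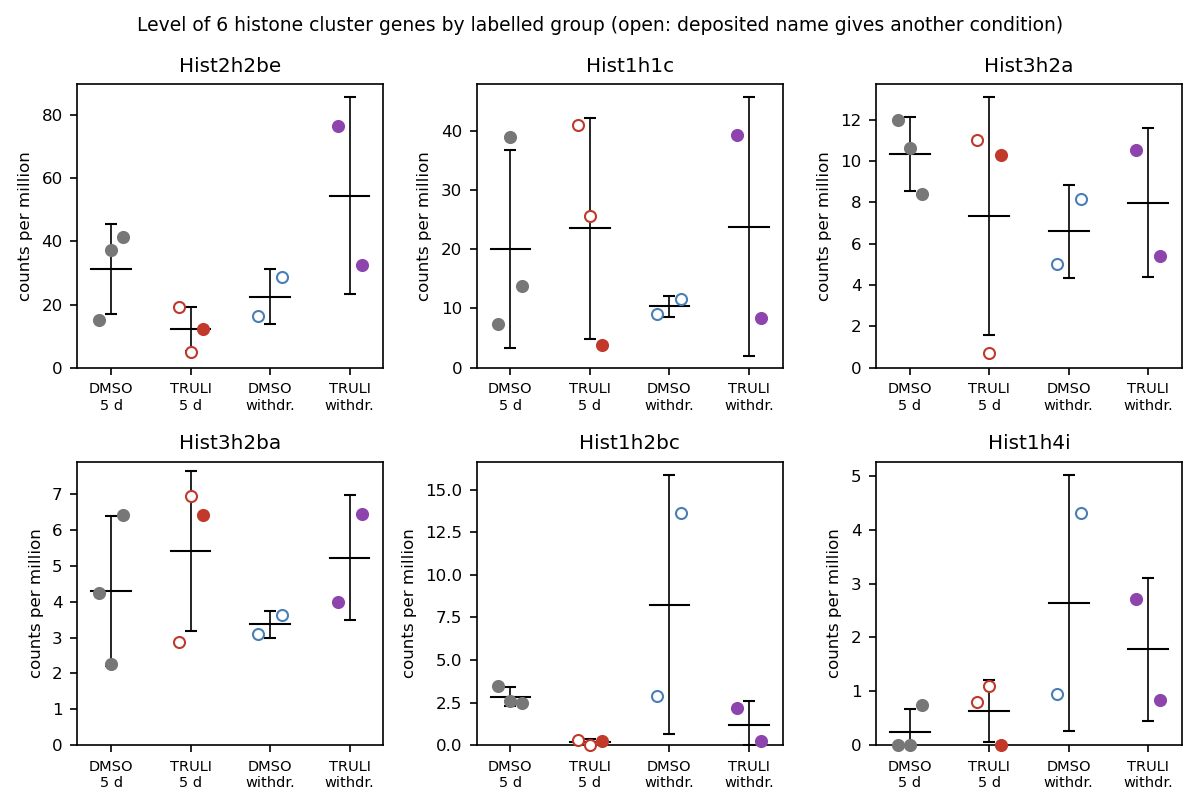
Level (CPM) of 6 members in each library by labelled group, with the group mean (horizontal bar) and SD (vertical bar, cut at 0), and open points for libraries whose deposited name gives another condition. Hist2h2be and Hist1h1c spread over several-fold within groups, and Hist1h2bc has a single high library at 13.6.

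The effect of TRULI after 5 days was compared first. A gene counted as called where its adjusted p was below 0.05 and its fold change exceeded 1 in size on the log2 scale. By sample label 5 members passed the filter on low counts and 0 were called by edgeR, where the calls among 10580 protein-coding genes were 0.00945% (higher) and 0% (lower). The groups overlapped for all 5, whereas they did not overlap for 18.3% of the protein-coding genes (8.55% higher, 9.71% lower). The median log2 fold change of the 5 was -0.48, beside 0.04 for all protein-coding genes tested. Hist2h2be had the lowest p, with a mean of 12.2 ± 7.01 CPM with TRULI and 31.3 ± 14.2 CPM with DMSO (SD, n = 3 each), a log2 fold change of -1.36 ± 0.57 (SE) and an adjusted p of 0.354 by edgeR's quasi-likelihood test. In the same fit this 1 member of the 5 and 1450 of the 10580 protein-coding genes had an unadjusted p under 0.05. DESeq2 called 0 members, beside 181 protein-coding genes higher and 59 lower. By label TRULI 5 d 1 and 2 had a low share of mt-Rnr2 (1.99% and 2.53%). TRULI 5 d 3 (18.4%) and the DMSO 5 d libraries (16.2% to 26.4%) had a high one. Set and treatment were thus partly mixed for any gene compared at 5 days by label. Without TRULI 5 d 3 edgeR called 1139 of 10810 protein-coding genes higher and 883 lower, and 0 members.

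By deposited name 6 members were tested at 5 days and 0 were called by edgeR or DESeq2, with 0 at an unadjusted p under 0.05 by edgeR. Of 10984 protein-coding genes 2.09% were called higher and 0.992% lower, 3.09% in all (3.3% at any fold). The groups overlapped for all 6, and did not for 21.5% of all genes (10.5% higher, 11% lower). Hist1h1c was at 8.17 ± 3.94 CPM with TRULI and 20.02 ± 16.7 CPM with DMSO, a log2 fold change of -1.27 ± 0.59 (SE) with an adjusted p of 0.316 by edgeR. Hist2h2be had a log2 fold change of -0.70 ± 0.41 (SE) with an adjusted p of 0.450. The sign for Hist1h1c thus turned with the grouping, from 0.20 ± 0.81 by label, while Hist2h2be, Hist3h2a and Hist1h2be had negative values in both, and no member passed the test.

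After withdrawal, 6 members were tested by label and 0 were called by edgeR or DESeq2, with 0 at an unadjusted p under 0.05 by edgeR, beside 0.985% of 11469 protein-coding genes higher and 1.06% lower (2.05% in all). The groups did not overlap for Hist2h2be, Hist3h2ba (both higher with TRULI) and Hist1h2bc (lower), 3 of 6, and neither did those of 58.1% of all genes (29.3% higher, 28.8% lower). Hist2h2be was at 54.5 ± 31.1 CPM after TRULI and 22.5 ± 8.599 CPM after DMSO (SD, n = 2 each), a log2 fold change of 1.22 ± 0.55 (SE) with an adjusted p of 0.221 by edgeR. Hist1h2bc had a log2 fold change of -2.80 ± 1.24 (SE) and an adjusted p of 0.213, which rested on 60 of its 72 control counts in DMSO withdrawal 2. Without TRULI withdrawal 2 both Hist2h2be (log2 1.68) and Hist1h1c (log2 1.83) were called higher, with adjusted p of 0.00686 and 0.0130 by edgeR, 2 of 9 members beside 1198 of 12059 protein-coding genes higher and 1011 lower. Without TRULI withdrawal 1 Hist1h2bc was called lower (log2 -5.18, adjusted p of 0.00378 by edgeR), 1 of 10 members beside 1547 of 11919 protein-coding genes lower and 1370 higher. In this grouping both TRULI withdrawal libraries had a low share of mt-Rnr2 (1.45% and 2.50%) and both DMSO withdrawal libraries a high one (23.7% and 13%), so that set and treatment cannot be told apart for any gene compared after withdrawal by label.

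By deposited name 4 members were tested after withdrawal and 0 were called by edgeR or DESeq2, where 0% of 10845 protein-coding genes were called in either direction. Hist2h2be, the only member of the 4 whose groups did not overlap (28.7% of all genes, 15.2% higher and 13.5% lower), was at 54.5 ± 31.1 CPM against 12.1 ± 9.91 CPM, a log2 fold change of 2.14 ± 0.76 (SE) with an adjusted p of 0.993 by edgeR. In this fit 490 protein-coding genes and 1 member, Hist2h2be, had an unadjusted p under 0.05. Hist3h2a and Hist3h2ba had log2 fold changes of 0.41 ± 1.15 and 0.09 ± 1.01 (SE).

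TRULI withdrawn was then compared with TRULI present. By label 4 members were tested and 0 were called by edgeR or DESeq2 (0% of 11444 protein-coding genes in either direction). Hist2h2be was at 54.5 ± 31.1 CPM after withdrawal and 12.2 ± 7.01 CPM with TRULI present, without overlap (16% of all genes, 8.41% higher and 7.6% lower), with a log2 fold change of 2.11 ± 0.68 (SE) and an adjusted p of 0.999 by edgeR; it was the 1 member with an unadjusted p under 0.05. By name 6 members were tested and 0 were called by edgeR, where edgeR's calls took in 14.1% of 11648 protein-coding genes, 8.16% upward and 5.91% downward. Hist2h2be had a log2 fold change of 1.46 ± 0.49 (SE), an adjusted p of 0.0800 by edgeR and groups without overlap (51.4% of all genes, 26% higher and 25.4% lower), again as the 1 member with an unadjusted p under 0.05, beside 3883 protein-coding genes. DESeq2 called it higher (log2 1.47, adjusted p of 0.0359), in a fit that called 1352 protein-coding genes higher and 1222 lower. In this grouping all libraries with a low share of mt-Rnr2 stand against libraries with a high one, so that set and treatment cannot be told apart. By label TRULI 5 d 3 alone had a high share (18.4%), so that set and treatment were partly mixed there too.

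The comparisons after withdrawal and of TRULI withdrawn with TRULI present share the libraries labelled TRULI withdrawal. A test of whether the effect of TRULI differed between 5 days and withdrawal called 0 of 7 members and 0 of 11918 protein-coding genes in either grouping. For Hist2h2be the difference in log2 fold change was -2.58 ± 0.88 (SE) by label and -2.82 ± 0.86 by name, with adjusted p of 0.653 and 0.383 by edgeR; it was the 1 member with an unadjusted p under 0.05 in each.

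**Figure D4:**
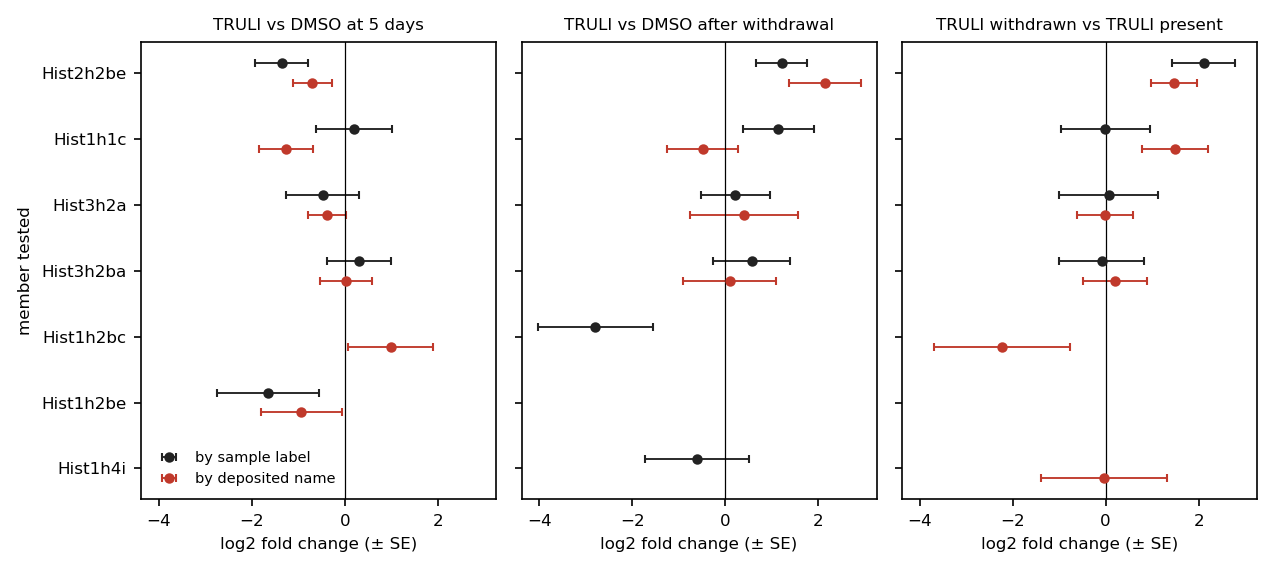
Log2 fold change with its SE for each member that passed the filter, in 3 comparisons, by sample label (black) and by deposited name (red); a member without a point was not tested there. Hist2h2be is below 0 at 5 days and above 0 in the comparisons with TRULI withdrawal in both groupings, Hist1h1c changes side with the grouping, and no point was called.

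Genes of S phase were then set beside the members. Of 24 S phase genes, such as those for the Mcm helicase and for ribonucleotide reductase, 10 of 21 tested were called higher with TRULI at 5 days by deposited name and none lower, with a median log2 fold change of 2.30 beside 0.02 for all protein-coding genes. They were Cdc6 and E2f1, which act before replication starts, Mcm2, Mcm3, Mcm5, Mcm6, Mcm7, Rrm1, Rrm2 and Uhrf1, with log2 fold changes from 1.56 (Rrm1) to 4.54 (Rrm2). Mcm3, a helicase subunit, rose by a log2 fold change of 3.55 ± 0.52 (SE, adjusted p of 0.00703 by edgeR) and Rrm2, of ribonucleotide reductase, by 4.54 ± 0.78 (adjusted p of 0.0132). By label none of 15 tested was called at 5 days, and after withdrawal 5 of 24 were called lower with TRULI and none higher (E2f8, Mcm6, Rrm1, Rrm2 and Uhrf1). With TRULI withdrawn against present by name, 9 of 23 were called lower (E2f8, Mcm2, Mcm4, Mcm5, Mcm6, Pola1, Rrm1, Rrm2 and Uhrf1). By edgeR 0 of 15 tested were called after withdrawal by name and 0 of 18 with TRULI withdrawn by label. DESeq2 called 2 higher at 5 days by label and 14 by name, and 12 lower after withdrawal by label. The counts of called genes moved with single libraries and with the fit. With all 10 libraries in one fit 2 genes were called at 5 days by name, 0 after withdrawal by label and 9 with TRULI withdrawn by name. At 5 days by name the count was 6, 1 and 2 without DMSO 5 d 1, 2 or 3, 15 and 3 without the libraries named TRULI 5 d 1 or 2, and 0 without the libraries whose label and name differ. After withdrawal by label it was 0 without either DMSO library and 16 or 13 without TRULI withdrawal 1 or 2. For TRULI withdrawn by name it was 5, 0 and 1 without the libraries named TRULI 5 d 1, 2 or 3 and 5 without TRULI withdrawal 2.

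The summed S phase level was 829 and 603 CPM in DMSO withdrawal 1 and 2, the libraries named TRULI 5 d 2 and 3, and 141 to 288 CPM in the other 8. The members summed to 48.4 and 79.1 CPM in those libraries, inside the range of the others (38.3 to 144 CPM). Their H4 sums, 1.19 and 5.68 CPM, lay inside the range of the other libraries. Their H3 sums were 3.34 and 0.227 CPM. The second was the lowest of all but rested on 1 count, of Hist1h3e. In that library 3 counts, the limit that a count of 0 allows, came to 0.682 CPM, so no low H3 level can be read from it. In the comparisons in which edgeR called S phase genes, it called 0 members; DESeq2 called 1 member, Hist2h2be, with TRULI withdrawn against present by name.

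**Figure D5:**
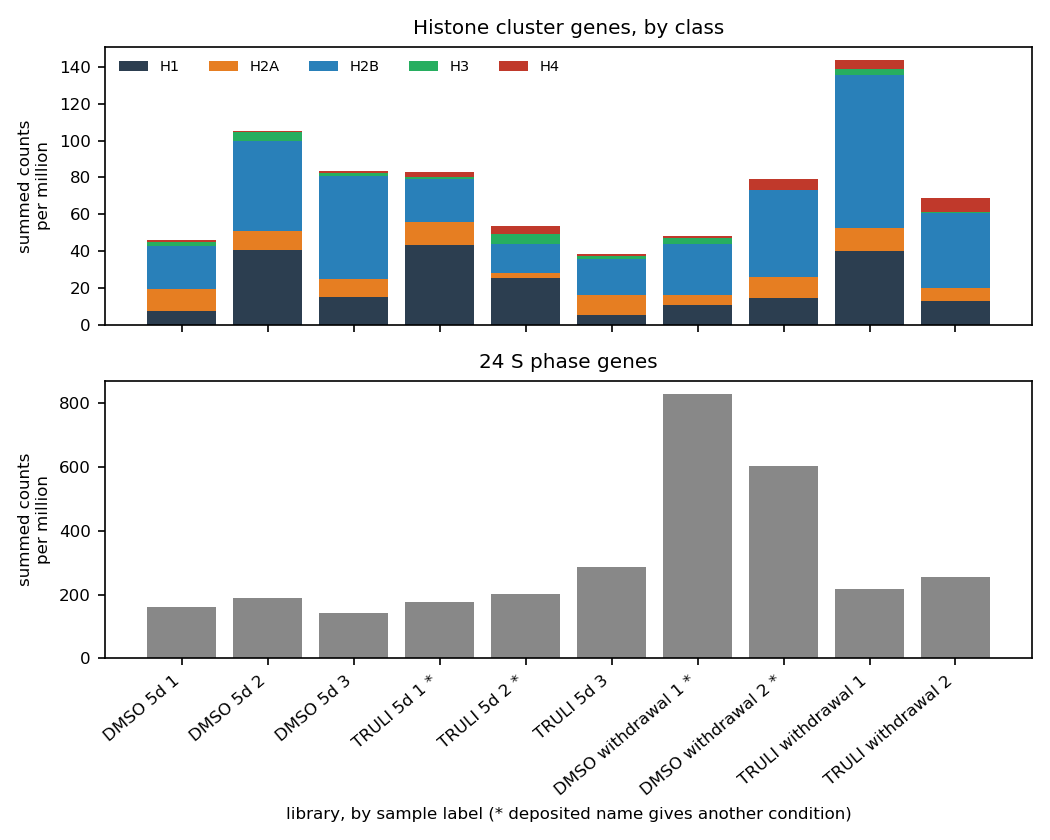
Summed CPM of the members by histone class (upper panel, stacked bars) and of 24 S phase genes (lower panel) in each library by sample label. The S phase sum stands out in the libraries labelled DMSO withdrawal 1 and 2 (829 and 603), which were deposited as TRULI 5 d 2 and 3. The histone sum does not, at 48.4 and 79.1 there against 144 in TRULI withdrawal 1.

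Of 16 genes that act in the transcription or processing of histone RNA, 14 had counts in all libraries. By name at 5 days 1 gene, Ccne1, for cyclin E, was called higher among 15 tested (log2 3.12 ± 0.72, SE, adjusted p of 0.0433 by edgeR), and by label after withdrawal Ccne1 and Zfp473, a protein of the U7 particle that cuts histone RNA, were called lower among 16 tested (log2 -3.64 ± 0.68 and -5.80 ± 0.98, adjusted p of 0.0459 and 0.0425). With TRULI withdrawn against present by name, Zfp473 and Sympk, a scaffold of the cutting complex, were called lower (log2 -5.25 ± 1.39 and -2.27 ± 0.51, adjusted p of 0.0423 and 0.0263). By edgeR 0 were called by label at 5 days, by name after withdrawal or by label for TRULI withdrawn. Leaving out libraries in turn, 1 gene was called at 5 days without the library named TRULI 5 d 1 and 0 without any other, and both calls after withdrawal were lost without either DMSO library. With TRULI withdrawn the count was 0 without the library named TRULI 5 d 2 or 3, without the libraries whose label and name differ, and with the replicate block. With all 10 libraries in one fit 0 were called at 5 days by name and after withdrawal by label. Slbp, the stem-loop binding protein, was at 21.3 to 69.6 CPM and Npat, which activates transcription of the clusters, at 10.99 to 33.2 CPM, and neither was called in any comparison or grouping.

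Of 16 genes for histone supply and chaperones, Asf1b and Chaf1b, chaperones that deliver new H3 and H4, were called higher at 5 days by name among 15 tested (log2 4.21 ± 0.74 and 4.03 ± 0.85, SE, adjusted p of 0.0141 and 0.0302 by edgeR). With TRULI withdrawn against present by name, Daxx and Nap1l4 were called higher (log2 1.55 ± 0.35 and 2.32 ± 0.41, adjusted p of 0.0277 and 0.0161) and Hat1, which acetylates new H4, lower (log2 -1.77 ± 0.49, adjusted p of 0.0468). Of the 15 tested there, 2 were higher and 1 lower, beside 8.16% and 5.91% of protein-coding genes. Nap1l4 was at 876 to 1172 CPM in the libraries named for withdrawal, with DMSO or TRULI, and at 136 to 334 CPM in the others. Daxx was at 27.8 to 53.1 CPM in the former and 13.1 to 22.0 CPM in the latter. In the other comparisons and groupings 0 of the list were called by edgeR. Both calls at 5 days were lost without DMSO 5 d 2 or 3 or the library named TRULI 5 d 2, and those for TRULI withdrawn without the libraries named TRULI 5 d 1 or 2. With all 10 libraries in one fit 0 were called at 5 days.

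Histone genes outside the clusters are given for comparison: 11 of them summed to 1498 to 4523 CPM per library, most of it from H3f3a, H3f3b and H1f0. H3f3b and H3f3a, for the replacement form of H3, had means of 538 and 1120 FPKM, and H2afz and H2afv, for H2A variants, 167 and 247 FPKM, against 15 FPKM for the leading member. Below that member lay Cenpa (6.38 FPKM), H2afj (2.88 FPKM), H2afy2 (2.48 FPKM) and H1fx (0.280 FPKM, with counts in 3 libraries). With TRULI withdrawn against present by name, 5 of 10 tested were called higher and none lower. H2afx rose by a log2 fold change of 2.23 ± 0.51, H1f0, the linker histone of non-dividing cells, by 1.64 ± 0.37, H2afv by 1.51 ± 0.41, H3f3a by 1.09 ± 0.29 and H3f3b by 1.01 ± 0.26 (SE, adjusted p from 0.0271 to 0.0431 by edgeR). Cenpa, the centromeric form of H3, was called higher at 5 days by name (log2 3.81 ± 0.78, adjusted p of 0.0265). The count was 0 without TRULI withdrawal 2 or without the libraries named TRULI 5 d 1 or 2, and Cenpa was not called without DMSO 5 d 2 or 3 or the library named TRULI 5 d 2, nor with all 10 libraries in one fit. By edgeR 0 genes of this list were called in the other comparisons and groupings. H1f0 was at 64.9 to 142 CPM in the 6 libraries named for 5 days and at 255 to 875 CPM in the 4 named for withdrawal, whichever label they carried.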

How the data were processed

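RNA-seq of 10 libraries of sorted utricular supporting cells was analysed. Per the labels and methods, 150-base paired reads were aligned with STAR to GRCm38. The program that counted them is not given in the sources used here. The deposited values were expected counts per gene, made by the authors with no normalization that the tables show, and were rounded here to whole counts. Rows without a gene name (360, 0.03103% of counts) stayed in the fits and library totals and were in no gene list.

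Groups came from the sample labels, and every fit was repeated with the condition in the deposited name. TMM scaling, the filterByExpr filter, edgeR 4.0.16 quasi-likelihood tests and Benjamini-Hochberg adjustment over all genes tested were used in R 4.3.3, with DESeq2 1.42.0 as an alternative. Fits held the groups compared and no covariate. Expression per length divided CPM by the effective length in the tables. Differences between libraries exceeded sampling noise throughout (smallest chi-square per degree of freedom 15.26). Annotation was GENCODE M21 (48349 of 48709 genes matched). Per library 3 counts, the limit that a count of 0 allows, came to 0.479 to 1.16 CPM, for counting error only. The scripts were tested on simulated data.

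Same-numbered libraries deviated together at 5 days by deposited name (correlations 0.381, 0.192 and 0.315 in the paired check), and no source says what the number marks.

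Members and gene lists were chosen with earlier results of these data known. Members named individually were those called, the 3 with the highest level per length in each class, and Hist3h2a, Hist3h2ba and Hist4h4; members that passed the filter were given where described. Hist1h4b, Slbp, Npat and the members chosen for the sequence display were named after their values were seen. Alternatives were the grouping, DESeq2, size factors, no filter, all libraries in 1 fit, protein-coding genes only, a replicate block and leaving out each library; leaving out the 4 libraries whose label and name differ was added after the data were seen.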

Additional observations from a re-analysis of the deposited data

Results flagged for a closer look

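Hist1h2al, a processed pseudogene of the Hist1 cluster that is outside the members, had a mean level of 1.181 CPM with TRULI at 5 days by sample label, above the DMSO libraries. Its counts were 16, 2 and 1 in TRULI 5 d 1 to 3 and 0, 0 and 1 in DMSO 5 d 1 to 3. It also had 0 and 8 counts in DMSO withdrawal and 13 and 8 in TRULI withdrawal. The difference was not tested, and the 16 counts lie in a library deposited under the name DMSO withdrawal 1.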

How the results depend on the processing

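No member count changed under DESeq2 size factors, all 10 libraries in one fit, protein-coding genes only or the replicate block, in either grouping. With the replicate block 0 members were called in every comparison, while called protein-coding genes at 5 days by deposited name went from 230 higher and 109 lower to 460 and 212, and after withdrawal by label from 113 and 122 to 689 and 514. By deposited name and with no filter on low counts, 1 member (Hist1h1c) was lower at 5 days, 1 (Hist2h2be) was higher with TRULI withdrawn and 1 had a different effect between times; DESeq2 by name called 1 (Hist2h2be) with TRULI withdrawn. The fits with no filter called 609 protein-coding genes higher and 229 lower of 15176 at 5 days, 1528 and 1158 of 15150 with TRULI withdrawn, and 265 of 15784 for the difference between times. Leaving out libraries gave 0 to 2 members higher and 0 to 1 lower after withdrawal, and by name without TRULI withdrawal 2, 2 were higher with TRULI withdrawn, beside 933 of 12237 protein-coding genes. At 5 or more counts the median number of members detected per library was 7 in place of 16. The causes were not tested.

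The log2 fold changes below changed sign, and 298 other values for single members kept direction and side of the threshold. At 5 days, Hist1h1c had -0.071 with the replicate block, -2.36 without the 4 libraries whose label and name differ, -1.27 by name, and -0.44 to 1.09 with a library left out. Hist3h2a had 0.0061 without those 4 libraries in both groupings and -0.85 to 0.036 with a library left out, and Hist3h2ba had -0.010 to 0.70. By name, Hist1h2bc had -3.28 without the 4 libraries and -0.79 without the library named TRULI 5 d 3, and Hist3h2ba had -0.29 without DMSO 5 d 2 and -0.36 without the library named TRULI 5 d 1.

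After withdrawal, Hist1h1c had -0.49 by name, and with a library left out -0.38 to 1.83; Hist1h4i then had -1.69 to 0.80 and Hist3h2a -0.35 to 0.59. By name with a library left out, Hist1h1c had 0.22, Hist3h2a had -0.47 and -0.16, and Hist3h2ba had -0.43 and -0.30.

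With TRULI withdrawn against present, Hist1h1c had 0.00049 with DESeq2, 0.014 with no filter, 0.0040 with protein-coding genes only, 2.56 without the 4 libraries, 1.49 by name and -1.51 to 0.72 with a library left out. Hist3h2a had -0.42 without the 4 libraries, -0.014 by name and -0.48 to 0.48 with a library left out, and Hist3h2ba had 0.17 with the replicate block, 0.21 by name and -0.45 to 0.23. By name, Hist1h4i had 1.83 with the block, 6.08 without the 4 libraries and 0.54 without TRULI withdrawal 2. Hist3h2a had 0.022 with the block and 0.22, 0.011 and 0.33 with a library left out, and Hist3h2ba had -0.35 without the 4 libraries and -0.23 without TRULI withdrawal 2. Where 1 library was left in a group, it was assumed to vary like the other group. Without the 4 libraries, the comparison after withdrawal could not be fitted in either grouping, since no control was left. At these depths, 3 counts correspond to up to 1.16 CPM in a library, above the level of most members.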
